A study of Mus musculus with 6 samples.

Results

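Interferon regulatory factors and STATs are transcription factors of the interferon and cytokine response, and 9 of their genes were described here: Irf1, Irf2, Irf3, Irf5, Irf7, Irf8, Irf9, Stat2 and Stat3. They were chosen by symbol, with earlier results of these data known, out of 16 IRF and STAT symbols in the table. Each symbol was represented by its transcript with the highest mean over all libraries, which gave 9 of the 23282 symbols in the table. All 9 were among the 7995 genes that averaged 10 reads or more per library, which were the genes tested. The cells were peritoneal macrophages from female C57BL/6 mice, elicited with thioglycollate, an irritant that recruits them into the peritoneal cavity, and kept in culture. They received Smyd5, Phf2 or control siRNA for 48 hours and then KLA or vehicle. KLA is Kdo2-lipid A, the active part of lipopolysaccharide (dose 100 ng/ml, exposure 4 hours). Poly(A) RNA was sequenced in 6 libraries, 1 for each siRNA and agent: siSmyd5 KLA, siPhf2 KLA, siCtl KLA, siSmyd5 vehicle, siPhf2 vehicle and siCtl vehicle. The study asked how a histone H4 lysine 20 methyltransferase (Smyd5) and a histone demethylase (Phf2) bear on inflammatory genes. No group has a replicate, and the labels name no animal or culture for any library.

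Lipid A is sensed by TLR4, which signals through MyD88 to NF-kB and IRF5 and through TRIF to the kinases TBK1 and IKKε, which phosphorylate IRF3 and IRF7. These switch on interferon-β, which acts back on the cell through its receptor and the Janus kinases. STAT2 is then phosphorylated and joins IRF9 in ISGF3, a complex that binds the interferon-stimulated response element (ISRE). STAT3, downstream of IL-6 and IL-10, binds the gamma-activated site (GAS). IRF1 activates and IRF2 largely opposes it at shared sites, and IRF8 with PU.1 maintains macrophage identity. STAT3 carries the anti-inflammatory response to IL-10 in macrophages.

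The libraries differed in depth and quality. Reads per library were 919338 (siSmyd5 KLA), 420149 (siPhf2 KLA), 1429509 (siCtl KLA), 921925 (siSmyd5 vehicle), 577054 (siPhf2 vehicle) and 1359270 (siCtl vehicle). The ribosomal RNA precursor Rn45s took 71.6% and 66.7% of the siPhf2 KLA and vehicle libraries and at most 1.2% of the others, which left 119144 and 192420 other reads against at least 910906 elsewhere. The column totals printed in the table for siCtl and siPhf2 fit each other's values, so their names or their totals may have been exchanged, and the arms are named by the labels printed on the columns. The labels were also checked by the targeted genes. Smyd5 had 20, 0 and 29 reads in the siSmyd5, siPhf2 and siCtl KLA libraries and 9, 3 and 44 in the vehicle libraries of the same siRNAs. Scaled to sequencing depth with TMM factors, as CPM, that is 14.2 in siSmyd5 against 12.9 in siCtl under KLA and 5.95 against 18.0 under vehicle, and the averaged siSmyd5 log2 fold change of −0.64 did not pass the test described below (adjusted p 0.384). Phf2 had 34, 8 and 120 reads under KLA and 52, 29 and 113 under vehicle, and on the same scale it was not lower in the siPhf2-labelled libraries than in the siCtl-labelled ones (57.7 against 53.2 CPM under KLA and 118 against 46.4 under vehicle). No direction below is therefore drawn from a knockdown of Smyd5 or Phf2. All 8 macrophage markers were detected, at a summed level of 4075 to 5033 CPM in KLA libraries and 3828 to 5129 in vehicle libraries. Of the other lists, T and NK cell markers summed to 0 to 4.97 and 1.64 to 5.29 (Klrb1c at 0 in all), B cell markers to 7.21 to 13.3 and 5.29 to 16.3, and neutrophil markers to 0 to 21.3 and 10.3 to 25.1. Mast cell and eosinophil markers summed to 0 to 17.7 under KLA and 0 to 15.6 under vehicle (Prg2 and Epx at 0 in all). Mesothelial and fibroblast markers summed to 209 to 493 and 239.8 to 481. These came mostly from the collagens Col1a1 and Col3a1 and were lowest in the siPhf2-labelled library under each agent. No marker passed the test for KLA, and 5 of those tested passed under an siRNA label (named after their values were seen). Under the siPhf2 label the macrophage markers Csf1r (log2 fold change 1.37, adjusted p 0.000795) and Mertk (1.60, 0.00019) rose, and Fcgr1 (−1.18, 0.0426) and Col3a1 (−2.55, 7.96e-05) fell, by edgeR's quasi-likelihood test. Scaled to library totals all 4 were negative, with Csf1r at −0.79 and Mertk at −0.56. Both lie above the median of all genes in that fit, −2.26. Under the siSmyd5 label the neutrophil marker S100a8 rose (1.25, adjusted p 0.0378), a call that held in 4 of 15 alternatives. The part of the markers in the results was not tested.

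The promoters of 4 members are shown. Irf1, Irf2 and Stat2 passed the test for a rise under KLA and hold motif matches, and for Irf7 neither is so. Each line is the 250 bases before the RefSeq start on GRCm38.p6, written 5′ to 3′ on the gene's strand, at chr11:53769764-53770013 (Irf1, plus strand), chr8:46739495-46739744 (Irf2, plus), chr10:128270248-128270497 (Stat2, plus) and chr7:141266425-141266674 (Irf7, minus). Capitals mark matches, on either strand, to the ISRE core (GAAA, any 2 bases, GAAA), the GAS core TTCNNNGAA or the kappaB consensus of NF-kB.
Irf1: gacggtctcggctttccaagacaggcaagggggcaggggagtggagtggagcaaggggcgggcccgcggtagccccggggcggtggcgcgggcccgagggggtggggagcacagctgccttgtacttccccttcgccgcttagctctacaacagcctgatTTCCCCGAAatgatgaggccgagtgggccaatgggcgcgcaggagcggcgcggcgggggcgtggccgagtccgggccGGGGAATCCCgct
Irf2: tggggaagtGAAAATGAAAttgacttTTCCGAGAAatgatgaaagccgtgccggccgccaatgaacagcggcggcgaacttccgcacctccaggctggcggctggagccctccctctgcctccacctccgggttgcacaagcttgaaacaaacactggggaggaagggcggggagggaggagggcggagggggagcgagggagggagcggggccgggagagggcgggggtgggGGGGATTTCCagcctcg
Stat2: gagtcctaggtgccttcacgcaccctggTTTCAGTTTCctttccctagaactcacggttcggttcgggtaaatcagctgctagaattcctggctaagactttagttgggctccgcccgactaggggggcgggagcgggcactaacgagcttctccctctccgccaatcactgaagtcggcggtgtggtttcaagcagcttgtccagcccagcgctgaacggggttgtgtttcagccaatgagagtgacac
Irf7: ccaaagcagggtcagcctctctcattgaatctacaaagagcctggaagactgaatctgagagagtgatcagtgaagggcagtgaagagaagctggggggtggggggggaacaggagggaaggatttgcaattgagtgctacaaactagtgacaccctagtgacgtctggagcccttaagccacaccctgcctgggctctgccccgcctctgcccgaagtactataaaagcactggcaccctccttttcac
The Irf1 window held a GAS core 90 to 82 bases before the start and a kappaB match 13 to 4 bases before it, found on both strands at the same bases. The Irf2 window held an ISRE core (241 to 232 bases before the start), a GAS core (224 to 216) and a kappaB match (17 to 8). The Stat2 window held an ISRE core on the reverse strand, 222 to 213 bases before the start. No match was found in the Irf7 window, which says only that these letters are not in those 250 bases. All 9 members had a promoter in the table, in 12 windows, and of the windows not shown only the first of Irf8 matched, with 2 GAS cores. Irf5 and Irf9 also passed the test for a rise under KLA and had no match, and Irf8 did not pass. Matches were thus not found in every member that rose, nor only in those. Among 32851 windows of this length, 2.98% held the ISRE core, 7.02% the GAS core and 7.25% the kappaB consensus. A match is a description of the sequence and not of binding.

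What KLA did to the family was asked with a fit over all 6 libraries, in which the KLA effect is averaged over the siRNAs. Irf1, Irf2, Irf5, Irf9 and Stat2 rose, 5 of 9 members, and none fell (edgeR quasi-likelihood, Benjamini-Hochberg adjusted p below 0.05). Over all genes tested 11.2% rose and 4.6% fell. Since the members were chosen with earlier results of these data known, the count describes these 9 genes and is not a test of the family. The members' median log2 fold change was 0.85, against −0.03 over all genes tested. Without both siPhf2-labelled libraries the count was again 5 and the 5 genes were the same ones, in a fit where 16.1% of all genes rose and 10.3% fell. The count was 3 with DESeq2, 2 with limma on log2(signal + 1) and 3 without the siSmyd5 KLA library. In bulk RNA, fewer cells of a type and less RNA per cell cannot be told apart. With 2 residual degrees of freedom, any difference between the siRNA arms in their response to KLA counts as noise in this fit. When 1 library of an siRNA is left out, the other is fitted by its own siRNA term. The KLA effect then comes from the other siRNAs alone, whichever of the 2 libraries is left out. Ratios between 2 libraries are given beside it with a 95% interval that covers counting error only. A member is called higher or lower by size when its log2 ratio is at least 1 in either direction and the interval leaves out equality.

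**Figure D1:**
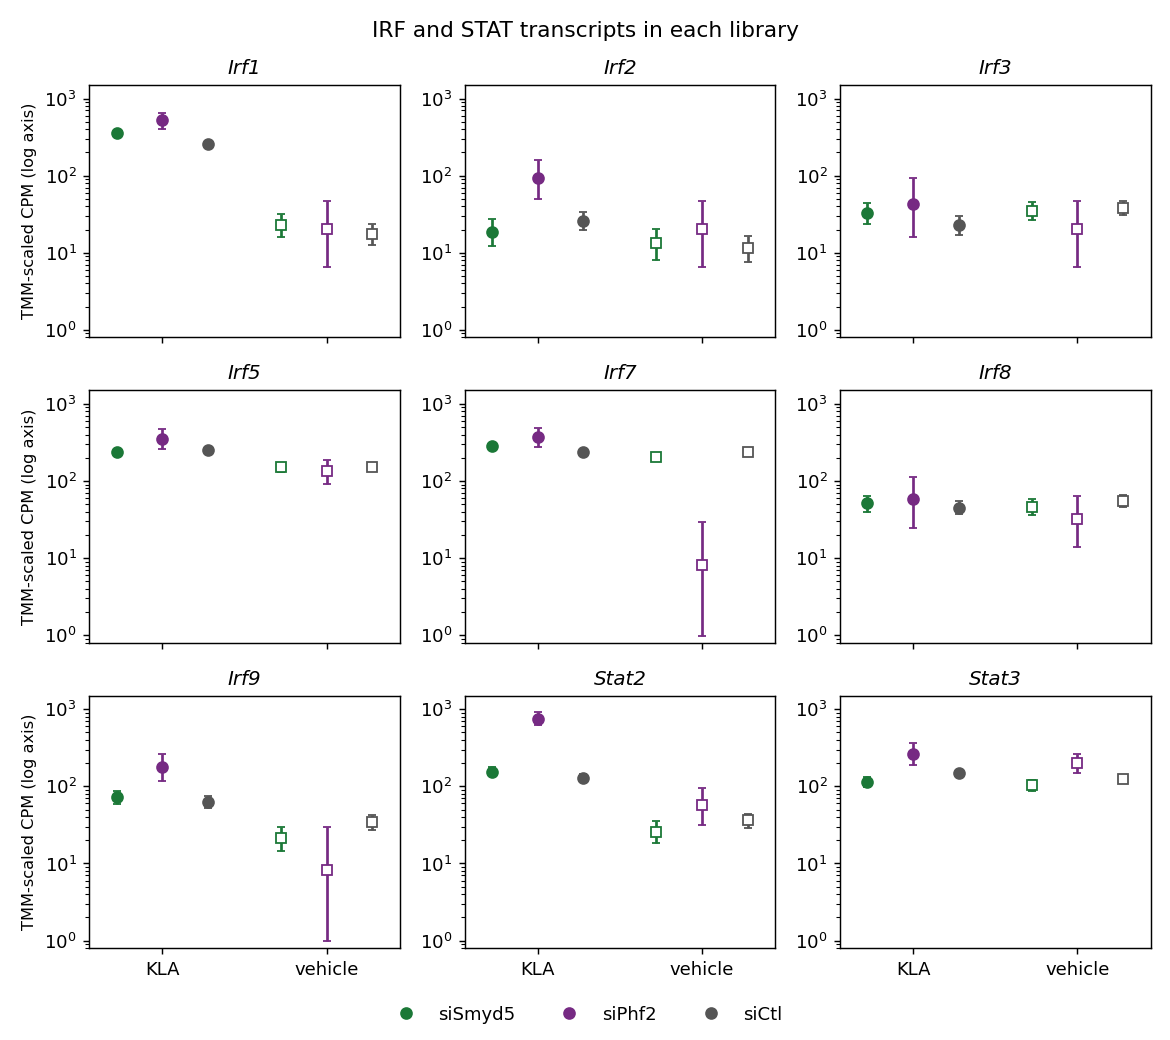
Level of each of the 9 transcripts in each library, in TMM-scaled CPM on a log axis, with 95% Poisson intervals for counting error. Filled circles are KLA libraries and open squares vehicle libraries, and colour gives the siRNA label. Irf1 lay between 261 and 519 in the KLA libraries, against 17.6 to 23.1 in the vehicle libraries, and Irf7 stood at 8.13 in the siPhf2 vehicle library alone.

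Irf1 changed most. Irf1 (NM_008390, chr11:53583516-53590826 on mm9, plus strand), the activator first found at the interferon-β promoter, had 355, 519 and 261 TMM-scaled CPM in the siSmyd5, siPhf2 and siCtl KLA libraries, against 23.1, 20.3 and 17.6 in the vehicle libraries of the same siRNAs. Every KLA library stood far above every vehicle library. The reads behind these levels were 500, 72 and 588 under KLA and 35, 5 and 43 under vehicle. The averaged log2 fold change was 4.01 (standard error 0.23, adjusted p 9.39e-11 by edgeR's quasi-likelihood test with the Benjamini-Hochberg method), a 16.1-fold difference. KLA over vehicle came to 15.4-fold in siSmyd5 (interval 10.9 to 22.3), 25.5-fold in siPhf2 (10.5 to 81.1) and 14.8-fold in siCtl (10.8 to 20.7), intervals that overlap. Irf1 passed under all 17 alternatives. The deposited coordinates here and below span the whole transcript, exons and introns.

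Irf2 was scarce. Irf2 (NM_008391, chr8:47825099-47932812, plus strand), which competes with IRF1 for the same sites, had 18.5, 93.7 and 25.7 TMM-scaled CPM in the siSmyd5, siPhf2 and siCtl KLA libraries, against 13.2, 20.3 and 11.5 under vehicle. The siPhf2 KLA library stood above the rest, on 13 reads, and the siSmyd5 KLA library lay below the siPhf2 vehicle library, so the groups overlapped. The averaged log2 fold change was 1.07 (standard error 0.31, adjusted p 0.0204). KLA over vehicle was 1.40-fold in siSmyd5 (0.750 to 2.64), 4.61-fold in siPhf2 (1.54 to 16.5) and 2.24-fold in siCtl (1.40 to 3.65). Irf2 passed in 5 of 16 alternatives, with adjusted p between 0.00318 and 0.519. It no longer passed without the siSmyd5 KLA (0.163), siCtl KLA (0.519), siSmyd5 vehicle (0.121) or siCtl vehicle (0.456) library.

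The ISGF3 subunits Stat2 and Irf9 both rose. Stat2 (NM_019963, chr10:127707632-127729905, plus strand), the subunit that carries the transactivation domain of ISGF3, had 155, 757 and 129 TMM-scaled CPM in the siSmyd5, siPhf2 and siCtl KLA libraries, against 25.8, 56.9 and 36.1 under vehicle. The 3 KLA libraries did not overlap the 3 vehicle libraries, and the siPhf2-labelled library was the highest under each agent. The averaged log2 fold change was 2.50 (standard error 0.25, adjusted p 3.06e-07), and Stat2 passed under all 17 alternatives. KLA over vehicle was 6.01-fold in siSmyd5 (4.26 to 8.68), 13.3-fold in siPhf2 (7.59 to 25.2) and 3.58-fold in siCtl (2.81 to 4.59). The siCtl interval and the siPhf2 interval do not overlap.

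Irf9 (NM_001159417, chr14:56222822-56228867, plus strand), the DNA-binding subunit of ISGF3, had 71.8, 180.3 and 63.0 TMM-scaled CPM in the siSmyd5, siPhf2 and siCtl KLA libraries, against 21.1, 8.13 and 34.0 under vehicle. The groups did not overlap, although the siPhf2 vehicle value rests on 2 reads. The averaged log2 fold change was 1.495 (standard error 0.29, adjusted p 0.000808), and Irf9 passed in 16 of 17 alternatives, with adjusted p between 1.55e-09 and 0.197. KLA over vehicle was 3.39-fold in siSmyd5 (2.26 to 5.22), 22.2-fold in siPhf2 (5.53 to 193) and 1.85-fold in siCtl (1.40 to 2.46). Leaving out the siCtl KLA or siCtl vehicle library moved the averaged log2 fold change to 2.46 or 2.45.

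The IRFs that TLR4 activates by phosphorylation differed among themselves at the RNA level. Irf5 (NM_001252382, chr6:29479282-29487320, plus strand), which acts downstream of MyD88, had 235, 353 and 256 TMM-scaled CPM in the siSmyd5, siPhf2 and siCtl KLA libraries, against 150.0, 134 and 152 under vehicle. The groups did not overlap, and the vehicle libraries lay within a narrow range. The averaged log2 fold change was 0.85 (standard error 0.20, adjusted p 0.00482), a 1.80-fold rise. It passed in 11 of 17 alternatives, with adjusted p between 1.11e-06 and 0.150. The call was lost with DESeq2 (0.0943) and without the siSmyd5 KLA (0.136), siCtl KLA (0.139), siSmyd5 vehicle (0.150) or siCtl vehicle (0.140) library. KLA over vehicle was 1.57-fold in siSmyd5 (1.32 to 1.86), 2.63-fold in siPhf2 (1.66 to 4.23) and 1.68-fold in siCtl (1.48 to 1.92).

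Irf3 (NR_045611, chr7:52253018-52258218, plus strand), which is held latent in the cytoplasm until it is phosphorylated, had 32.7, 43.3 and 23.1 TMM-scaled CPM in the siSmyd5, siPhf2 and siCtl KLA libraries, against 35.0, 20.3 and 37.7 under vehicle. The groups overlapped, with the siPhf2-labelled libraries at both ends on 6 and 5 reads. Its log2 fold change of −0.34 (standard error 0.26) did not pass (adjusted p 0.458). In siCtl alone KLA over vehicle was 0.611 (interval 0.426 to 0.868), against 0.933 (0.615 to 1.41) in siSmyd5 and 2.13 (0.541 to 8.82) in siPhf2.

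Irf7, the interferon-inducible IRF that amplifies interferon-α output, depended on 1 library. Irf7 (NM_016850, chr7:148449082-148452323, minus strand) had 281, 368 and 238 TMM-scaled CPM in the siSmyd5, siPhf2 and siCtl KLA libraries, against 206, 8.13 and 236 under vehicle. It was thus already high in the siSmyd5 and siCtl vehicle libraries, on 312 and 576 reads, and nearly absent from the siPhf2 vehicle library, on 2 reads. The lowest KLA level lay just above the highest vehicle level. The averaged log2 fold change of 0.79 (standard error 0.38) did not pass (adjusted p 0.199). KLA over vehicle was 1.36-fold in siSmyd5 (1.17 to 1.59), 45.2-fold in siPhf2 (11.9 to 384) and 1.01-fold in siCtl (0.893 to 1.13). Without the siPhf2 KLA or the siPhf2 vehicle library the averaged log2 fold change was 0.21 either way. Both of these fits take the KLA effect from the siSmyd5 and siCtl libraries alone, so they are 1 result. Without the siCtl KLA or siCtl vehicle library it was 1.80 and passed, as it did without the siSmyd5 vehicle library (1.53). Over all alternatives the adjusted p lay between 0.000666 and 0.501.

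Irf8 and Stat3 stayed near their vehicle levels in the averaged fit. Irf8 (NM_008320, chr8:123260276-123280592, plus strand), the lineage factor of monocytes and macrophages, had 51.1, 57.7 and 45.3 TMM-scaled CPM in the siSmyd5, siPhf2 and siCtl KLA libraries, against 46.3, 32.5 and 55.4 under vehicle. The groups overlapped, and the log2 fold change of −0.03 (standard error 0.22) did not pass (adjusted p 0.947). It had the narrowest spread of the 9, with the highest library 1.77 times the lowest. Stat3 (NM_213659, chr11:100748124-100800825, minus strand) had 114, 267 and 147 TMM-scaled CPM in the same KLA libraries, against 103, 199 and 125 under vehicle. Its order followed the siRNA label and not the agent, with both siPhf2-labelled libraries highest. The KLA log2 fold change of 0.25 (standard error 0.18) did not pass (adjusted p 0.449).

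**Figure D2:**
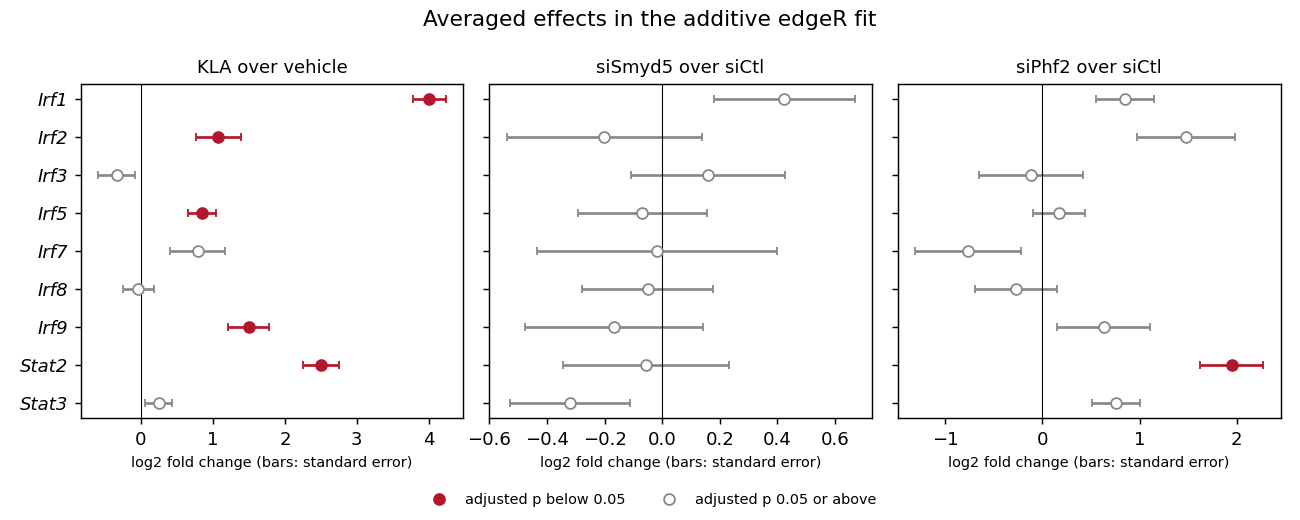
Averaged log2 fold change of each of the 9 genes for KLA over vehicle, siSmyd5 over siCtl and siPhf2 over siCtl in the additive edgeR fit, each panel on its own axis. Bars are standard errors and filled points have an adjusted p below 0.05. Filled points are Irf1, Irf2, Irf5, Irf9 and Stat2 in the KLA panel, none in the siSmyd5 panel and Stat2 in the siPhf2 panel.

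Taking levels per kilobase of transcript, so that genes can be ranked against each other, Irf7 was the most abundant member of the siCtl vehicle library at 128 TMM-scaled CPM per kilobase (Poisson 95% interval 118 to 139). Irf5 followed at 68.0 (61.2 to 75.3) and Stat3 at 27.9 (24.9 to 31.3), each apart from its neighbours. Irf8 (19.7), Irf3 (17.3), Irf9 (13.4), Irf1 (8.29), Stat2 (8.26) and Irf2 (4.64) followed, and in this run every gene's interval overlapped that of its neighbour. In the siCtl KLA library Irf7 (129), Irf1 (123) and Irf5 (114) led with overlapping intervals. Stat3 (33.0), Stat2 (29.5) and Irf9 (24.9) came next, with overlapping intervals between neighbours, and Irf8 (16.1), Irf3 (10.6) and Irf2 (10.4) stood last per kilobase. The same 3 genes led the siSmyd5 KLA library, at 167 for Irf1, 152 for Irf7 and 105 for Irf5. In the siPhf2 KLA library Stat2 reached 173 per kilobase and stood between Irf7 (199) and Irf5 (158), with overlapping intervals. In the siPhf2 vehicle library Irf5 (60.1) and Stat3 (44.6) led, and Irf7 (4.40) and Irf9 (3.21) were last.

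The siSmyd5 label moved no member past the test. In the averaged fit 0 of 9 rose and 0 fell, where 2.74% of all genes rose and 3.65% fell (edgeR quasi-likelihood, Benjamini-Hochberg), and no member had an unadjusted p below 0.05. With DESeq2 the count was 0 as well. The members' median log2 fold change was −0.05, against 0.00 over all genes tested. The widest departures were Irf1 at 0.42 (standard error 0.24, adjusted p 0.301) and Stat3 at −0.32 (standard error 0.21, adjusted p 0.373). Single libraries gave no call by size in either agent, where 1.73% of genes were higher and 3.6% lower under KLA, and 2.41% and 4.99% under vehicle. Under KLA Irf1 stood at 1.36 of siCtl (interval 1.21 to 1.54), Irf7 at 1.18 (1.04 to 1.35) and Stat3 at 0.776 (0.639 to 0.940). Under vehicle Irf9 stood at 0.621 (0.400 to 0.944), and Irf7 at 0.873 (0.758 to 1.003). Counting error alone does not cover some of these differences, and no replicate shows what libraries of one group differ by. Without both siPhf2-labelled libraries, which are the shallow ones, Irf1 rose by a log2 fold change of 0.42 (adjusted p 0.0127) and Stat3 fell (−0.35, adjusted p 0.0296). In that fit 13.3% of all genes rose and 14.2% fell. Without the siPhf2 KLA or the siPhf2 vehicle library the siSmyd5 log2 fold change of Irf1 was 0.44 either way. These fits also take the siSmyd5 effect from the siSmyd5 and siCtl libraries alone, so they are not a further result. The adjusted p of Irf1 ran to 1 over the alternatives. With the siCtl and siPhf2 names exchanged 3 of 9 members fell under the siSmyd5 label, where 11.8% of all genes rose and 13.6% fell.

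Under the siPhf2 label Stat2 rose, and it was the only member to pass. Its averaged log2 fold change was 1.95 (standard error 0.32, adjusted p 0.000456 by the same edgeR test), where 8.12% of all genes rose and 4.52% fell. Stat3 (0.76, standard error 0.25, adjusted p 0.0509), Irf2 (1.48, 0.50, 0.0581) and Irf1 (0.85, 0.30, 0.0658) did not pass, nor did Irf7 (−0.76, 0.54, 0.384). The members' median was 0.63, against −0.13 over all genes. The Stat2 value was carried by the KLA library: it stood at 5.86 of siCtl under KLA (interval 4.65 to 7.35) and at 1.58 (0.828 to 2.79) under vehicle. It did not pass without the siPhf2 KLA library (log2 fold change 0.86, adjusted p 0.187) or the siCtl KLA library (1.09, adjusted p 0.393), over a range of 2.19e-12 to 0.413 in all alternatives. Scaled to library totals, which Rn45s fills in the siPhf2-labelled libraries, the median gene moved to a log2 fold change of −2.26 and Stat2 to −0.27, which lies above that median. Rn45s took 71.6% and 66.7% of the counted reads of these libraries, and its part in the result was not tested. With Rn45s taken out of the totals the median was −0.60 and Stat2 stood at 1.48 and passed. With the siCtl and siPhf2 names exchanged its sign turns round, to −1.95.

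Between single siPhf2 and siCtl libraries Irf7 and Irf9 were above siCtl under KLA and below it under vehicle, by TMM-scaled intervals that leave out equality, while scaled to library totals both were below siCtl under each agent. Under KLA Stat2, Irf2 and Irf9 were higher by size, at 5.86, 3.64 (1.83 to 6.73) and 2.86 (1.79 to 4.40) of siCtl. That is 3 of 9 members, where 7.9% of all genes were higher and 7.25% lower. With a length trend removed 7 members were higher, and with a bound of 1.5-fold 6 were. Irf1 stood at 1.99 (1.54 to 2.55), Stat3 at 1.81 (1.25 to 2.55) and Irf7 at 1.55 (1.14 to 2.06). Under vehicle no member was higher and 2 of 9 were lower by size, where 10.8% of genes were higher and 8.87% lower. Those were Irf7 at 0.0344 of siCtl (0.00416 to 0.125, 2 reads against 576) and Irf9 at 0.239 (0.0284 to 0.890, 2 reads against 83). Stat3 stood at 1.60 (1.16 to 2.16). Scaled to library totals 6 members were lower under KLA and 8 under vehicle, and none was higher, while the median gene lay at a log2 ratio of −2.30 under KLA and −1.96 under vehicle. Irf7 and Irf9 under vehicle were lower with every scaling run, and without Rn45s in the totals Irf2, Irf9 and Stat2 were again higher under KLA.

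**Figure D3:**
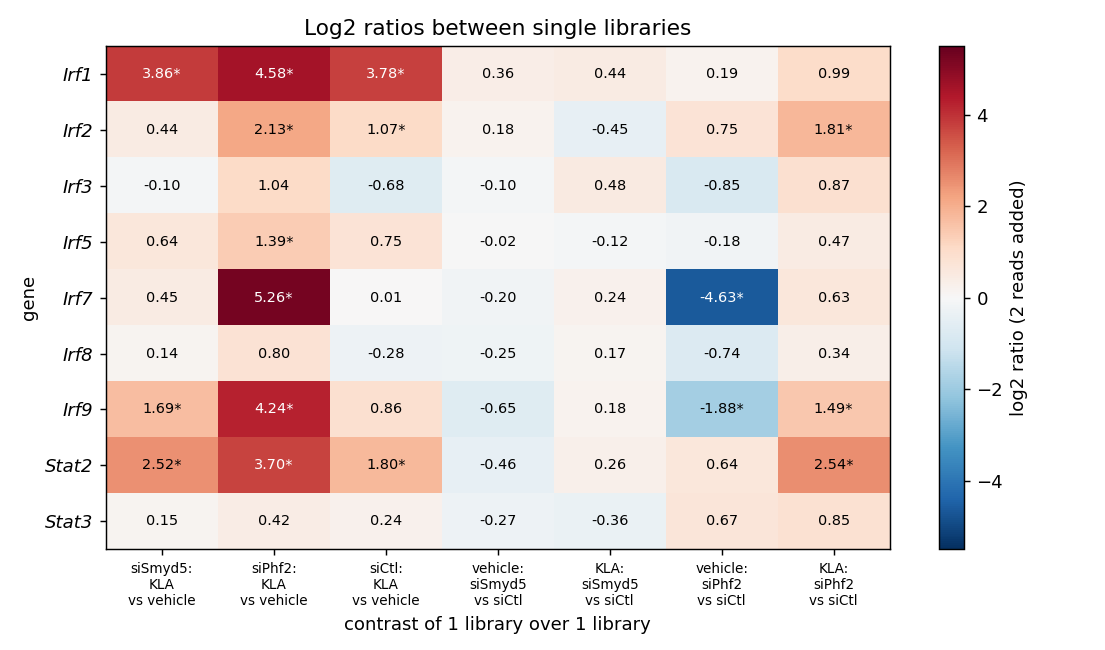
Log2 ratios of the 9 genes between pairs of single libraries, from TMM-scaled values with 2 reads added, the library named first over the second. Asterisks mark members called by size. Irf1 and Stat2 have asterisks in all 3 KLA columns, the siSmyd5 over siCtl columns have none, and Irf7 shows −4.63 in the siPhf2 vehicle column.

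The KLA responses within each siRNA were called on 3 of 9 members in siSmyd5 (Irf1, Irf9 and Stat2, where 8.68% of genes were higher and 3.48% lower), 6 of 9 in siPhf2 (8.42% and 6.88%) and 3 of 9 in siCtl (Irf1, Irf2 and Stat2, where 6.92% and 2.41%). The siPhf2 calls were Irf1, Irf2, Irf5, Irf7, Irf9 and Stat2. No member was lower by size in any arm. Whether the arms differ was not tested, since each contrast holds 1 library on each side. The KLA libraries stood wholly above the vehicle libraries for Irf1, Irf5, Irf7, Irf9 and Stat2, 5 of 9 members, where this held for 10.7% of all genes and the reverse for 8.67%.

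The make-up of the family's own reads does not depend on how libraries are scaled. Irf1 took 27.0% (Wilson 95% interval 25.0 to 29.1), 19.7% (15.9 to 24.1) and 22.0% (20.4 to 23.6) of the members' reads in the siSmyd5, siPhf2 and siCtl KLA libraries, against 3.71%, 4.07% and 2.50% under vehicle. Irf7 took 21.4%, 13.9% and 20.0% under KLA, against 33.1% (30.1 to 36.1), 1.63% (0.447 to 5.74) and 33.5% (31.3 to 35.8) under vehicle. Irf1 thus took more of the reads than Irf7 in every KLA library, and Irf7 more than Irf1 in the siSmyd5 and siCtl vehicle libraries. Per kilobase of transcript the order turned in the siCtl KLA library, at 25.0% for Irf1 and 26.2% for Irf7. Stat2 took 11.8%, 28.7% and 10.9% under KLA, against 4.13%, 11.4% and 5.12% under vehicle. Its share was largest in the siPhf2-labelled library under each agent. Stat3 took 39.8% (31.6 to 48.7) of the 123 member reads in the siPhf2 vehicle library, against 17.7% (16.0 to 19.6) of 1719 in the siCtl vehicle library.

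**Figure D4:**
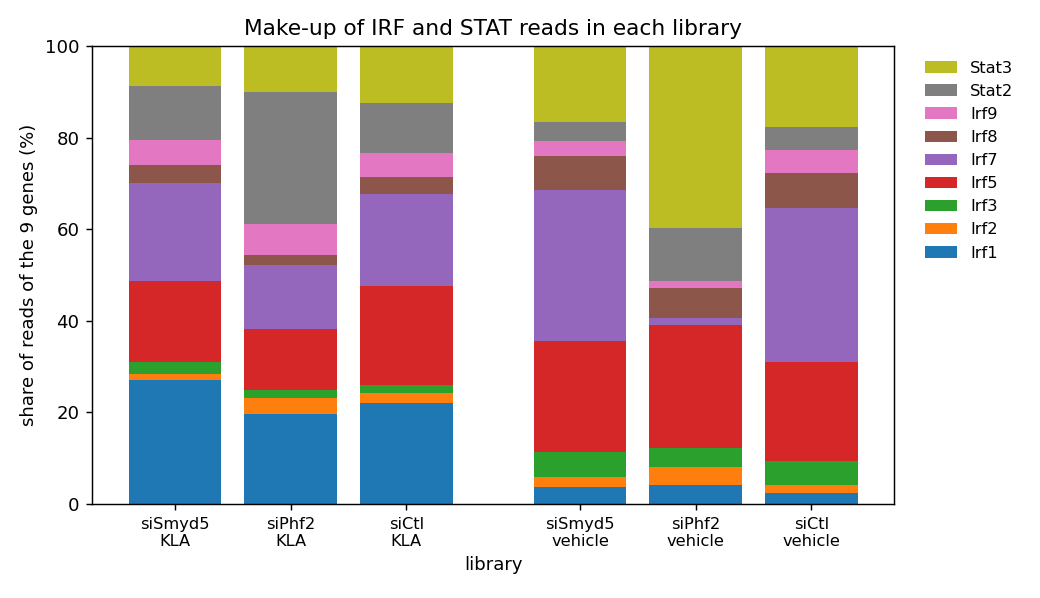
Share of each gene, in percent, among the reads of the 9 members in each library, KLA libraries on the left and vehicle libraries on the right. Irf1 (lowest segment) takes 19.7% to 27.0% of the bar in KLA libraries and 2.50% to 4.07% in vehicle libraries, and Irf7 is 1.63% of the siPhf2 vehicle bar.

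Of the family members outside the 9, Stat5a, which signals for GM-CSF, rose under KLA. It had 84.5, 180.3 and 106 TMM-scaled CPM in the siSmyd5, siPhf2 and siCtl KLA libraries, against 3.97, 32.5 and 8.20 under vehicle (log2 fold change 3.64, standard error 0.28, adjusted p 5.72e-09). Its neighbour Stat5b (0.69, adjusted p 0.110), Stat6, the IL-4 factor (−0.06, adjusted p 0.896), and Irf4 (0.67, adjusted p 0.423) did not pass. Stat5a and Stat5b are close paralogs, and how reads that match both were counted is not given in the sources used here. Stat4 had at most 6 reads in a library. Stat6 passed under the siPhf2 label (0.91, standard error 0.27, adjusted p 0.0318), a rise that held in 2 of 16 alternatives, was lost in 10 and turned negative in 4.

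The genes most like each member over the 6 libraries were found by Pearson correlation of log2 levels among the 3612 genes averaging 50 reads or more. The points share their libraries and depths, and the values are descriptions. The correlation does not take the size of changes into account. Dlgap4, the gene closest to Irf9, had 77, 11 and 124 reads in the siSmyd5, siPhf2 and siCtl KLA libraries and 57, 7 and 108 under vehicle. Irf9 had 101, 25 and 142 reads under KLA and 32, 2 and 83 under vehicle. Irf1 was closest to the ubiquitin-like Isg15 (r = 0.999) and the DNA exonuclease Trex1 (0.999). Irf7 was closest to complement factor B, Cfb (0.995), and clusterin, Clu (0.991). Cfb had 464, 51 and 580 reads in the siSmyd5, siPhf2 and siCtl KLA libraries and 393, 2 and 514 under vehicle, so it too was nearly absent from the siPhf2 vehicle library alone. Irf9 was closest to Dlgap4 (0.998) and the interferon-inducible Xaf1 (0.993), Stat2 to the ubiquitin ligase subunit Rnf31 (0.997) and Ppp1r15b (0.997), and Stat3 to Prrc2a (0.997) and Pik3ap1 (0.994). Irf2 was closest to Ankrd17 (0.991) and Sec24b (0.987), Irf5 to Pion (0.991) and Lcp2 (0.989), Irf8 to Serp1 (0.959) and Psmd3 (0.934), and Irf3 to Zfp148 (0.927) and Bfar (0.926). Among the members themselves Irf5 and Irf9 were the most alike (0.961), and Irf7 and Stat3 the least (−0.24).

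Upstream of the factors, 4 cytokine genes rose under KLA. Of 11 interferon and STAT-activating cytokine genes 5 had enough reads for the test, and 4 rose under KLA (edgeR quasi-likelihood with Benjamini-Hochberg, as for every call on these lists). Over all genes tested 11.2% rose and 4.6% fell under KLA, the shares to set beside each KLA count on these lists. Il6, an activator of STAT3, had 178, 2 and 168 reads in the siSmyd5, siPhf2 and siCtl KLA libraries, against 1, 0 and 9 under vehicle (log2 fold change 5.19). Csf2 (GM-CSF) had 36, 1 and 26 reads under KLA and 0 in every vehicle library, Il27 had 41, 10 and 56 against 0, 1 and 0, and Lif had 19, 1 and 60 against 0, 0 and 8. These 4 genes, Il6 among them, reached the minimum for the test only through their KLA reads. A cytokine gene that stayed low could not be tested, so the count of 4 says little about the group. Ifnb1, named after its values were seen, had 19, 1 and 14 reads under KLA and 0 in every vehicle library, below the minimum for the test. Of 13 receptors tested 3 rose and 1 fell: the interferon receptor chains Ifngr1 (1.15) and Ifnar1 (1.12) and Il4ra (0.59) rose, and Il6ra fell (−1.25). Il4ra passed in 5 of 17 alternatives. No receptor rose without the siSmyd5 KLA, siCtl KLA, siSmyd5 vehicle or siCtl vehicle library. Of 4 Janus kinases Jak2 rose (2.38, standard error 0.22, adjusted p 9.12e-08). From TLR4 to the IRFs 5 of 13 rose and 2 fell. The LPS co-receptor Cd14 (1.97) and the IRF3 kinase Ikbke (1.36) were among those that rose, while Tlr4 itself (−0.75) and the TRIF gene Ticam1 (−0.86) fell. Neither fall passed without any 1 of those 4 libraries.

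Inhibitors of the pathway rose in part. Of 13 inhibitors 6 rose and 1 fell under KLA, where 11.2% of all genes rose and 4.6% fell. The feedback inhibitor Socs3 had 210, 41 and 285 reads in the siSmyd5, siPhf2 and siCtl KLA libraries, against 5, 3 and 10 under vehicle (log2 fold change 5.04), and Cish (4.61) and the phosphatase Ptpn2 (0.84) rose as well. Ptpn2 passed in 7 of 16 alternatives, with adjusted p up to 0.646. Socs3 and Cish reached the minimum for the test only through their KLA reads. So did Socs1, which rose too and is named for this alone. An inhibitor that was low in every library could not be tested, so the count of 6 says less about the group. Irf2bp2, a corepressor that binds IRF2, had 19, 3 and 65 reads under KLA against 58, 21 and 196 under vehicle and fell (−1.52). It was also lower under the siSmyd5 label (−1.08, adjusted p 0.0162). Of 5 partners tested, Batf (2.29), Ifi35 (2.02) and Nmi (1.31) rose under KLA. Batf passed in 11 and Nmi in 10 of 16 alternatives. Batf, too, reached the minimum for the test only through its KLA reads. The coactivators Crebbp (−1.06, adjusted p 0.0120) and Ep300 (−0.75, adjusted p 0.0451) fell under the siSmyd5 label, and both are named after their values were seen. With DESeq2 the whole table gave 6 genes that rose and 8 that fell under the siSmyd5 label, against 219 and 292 here. Irf2bp2, Crebbp and Ep300 passed for siSmyd5 in 7, 8 and 6 of 17 alternatives, with adjusted p up to 1, and were negative in all of them. The Crebbp and Ep300 transcripts are long, at 7476 and 8718 bases. With a length trend removed, siSmyd5 over siCtl gave 256 genes lower by size under vehicle, against 399, and 157 under KLA, against 288. Genes higher numbered 120 against 193 and 71 against 138. The part of length in these falls was not tested. Spi1, which encodes PU.1, was not analysed here.

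Downstream, all 16 ISGF3 targets tested rose under KLA, with a median log2 fold change of 4.54 against −0.03 over all genes. Under KLA 11.2% of all genes rose and 4.6% fell. The largest changes that passed were those of Ifit1 (6.11) and Mx2 (5.82), antiviral effectors, and the smallest those of Isg20 (1.83) and Dhx58 (1.36). Of 10 targets of IRF1 or GAS elements 9 rose, from Cxcl10 (8.23) and Gbp5 (7.19) down to the antigen-processing genes Tap1 (1.57) and Psmb8 (0.9987), and Psmb9 did not pass. Mx2, Isg20, Cxcl10 and Gbp5 reached the minimum for the test only through their KLA reads. So did Ifit3, Ifi44 and Nos2, which rose too and are named for this alone. A target that was low in every library could not be tested, so the KLA counts say less about these lists. Of 12 STAT3 targets 7 rose, among them Socs3, Pim1 (2.45), Il4ra and Mcl1 (0.58), and none fell. Mcl1 passed in 6 of 17 alternatives, with adjusted p up to 0.678. Under the siPhf2 label 11 of 16 ISGF3 targets, 6 of 10 IRF1 or GAS targets and 4 of 12 STAT3 targets rose, where 8.12% of all genes did, with medians of 1.36, 1.22 and 0.07 against −0.13 over all genes. Scaled to library totals the counts were 1, 0 and 0 and the ISGF3 median was −0.86, against −2.26 over all genes, and without the siCtl KLA library 2, 2 and 0 rose. Without the siPhf2 KLA library 6, 3 and 1 rose. With the names of the siCtl and siPhf2 columns exchanged none rose. Under the siSmyd5 label 2.74% of all genes rose and 3.65% fell. No ISGF3, IRF1 or GAS target passed under that label, and of the STAT3 targets Etv3 alone fell (−1.001, adjusted p 0.0402). Etv3 passed in 5 of 16 alternatives, with adjusted p up to 1. Without both siPhf2-labelled libraries 10 of 16 ISGF3 targets and 6 of 10 IRF1 or GAS targets rose under the siSmyd5 label, where 13.3% of all genes did, with medians of 0.55 and 0.54 against −0.03 over all genes. The siSmyd5 call on these targets thus differs with and without the siPhf2-labelled libraries, and all of these siSmyd5 and siPhf2 values share the siCtl libraries. The Ifit, Mx and Gbp genes have paralogs, and how reads that match more than 1 of them were counted is not given in the sources used here.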

How the data were processed

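Poly(A) RNA of 6 macrophage libraries, 1 per siRNA and agent, was quantified with HOMER on mm9, per the submitters' processing notes. The deposited table gives a signal per RefSeq transcript, the authors' read count scaled to 10000000 tags, per the file headers. Multiplying each column by a header total and dividing by 10000000 recovered whole reads for 100% of values (tolerance 0.02). The siSmyd5 columns did so with their own totals, and the siCtl and siPhf2 columns only with each other's (2.43% or less whole with their own). Columns were kept under their printed names, with the exchange of names as an alternative. How multi-mapping reads and strand were treated is not given in the sources used here.

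Of 29619 transcripts, 2 without a symbol (at most 2 reads) were left out, and the transcript with the highest mean stood for its symbol. The test is edgeR's quasi-likelihood test (4.0.16, R 4.3.3) on recovered counts, a model of siRNA plus agent, TMM scaling, a mean of at least 10 reads and a Benjamini-Hochberg adjusted p below 0.05. Because the deposited unit is a signal, limma (3.58.1) on log2(signal + 10) and log2(signal + 1) was run as well, with DESeq2 (1.42.0), voom and other scalings, filters, transcript sums and left-out libraries. The p-values reflect the spread among these 6 libraries alone, which may be technical. Single-library ratios have exact conditional Poisson intervals and shares have Wilson intervals, both at 95% and for counting error only. For calls and plots 2 reads were added to the log2 ratio, and printed ratios have none added. Look-alike correlations used log2(CPM + 10). Motifs were searched in RefSeq promoters of GRCm38.p6, and deposited coordinates are mm9. Figures used matplotlib 3.10.9. Members and gene lists were chosen with earlier results of these data known. Of each list the text names the 2 largest and 2 smallest KLA changes that passed, and says where a gene is named outside that rule.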

Additional observations from a re-analysis of the deposited data

Results flagged for a closer look

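Irf7 and Irf9 differed from siCtl in opposite directions under the 2 agents. The siPhf2-labelled library stood at 1.55 of the siCtl-labelled one for Irf7 under KLA and at 0.0344 of it under vehicle. Irf9 stood at 2.86 under KLA and at 0.239 under vehicle. In each case the counting intervals left out equality on opposite sides. The vehicle values rest on 2 reads each in the siPhf2-labelled library. The difference between the agents was not tested, since each value compares 1 library with 1 library. The Rn45s share of the counted reads of the siPhf2-labelled libraries (71.6% under KLA and 66.7% under vehicle) and the uncertain column names touch both results. Their part was not tested.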

How the results depend on the processing

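No paired analysis was possible because each group holds 1 library, and the siRNA term already compares KLA with vehicle within each siRNA. Of the 5 members that rose under KLA, Irf1 and Stat2 passed in all 17 alternatives and Irf9 in all but limma on log2(signal + 1). The KLA count was 3 with DESeq2, 2 with limma on log2(signal + 1) and 3 to 5 leaving out 1 library. Over all genes KLA gave 893 rises and 368 falls, against 494 and 113 with DESeq2, 241 and 20 with limma on log2(signal + 1), 235 falls with voom, and 379 to 1329 and 56 to 723 leaving out 1 library. For siSmyd5 the count of members that rose was 0 to 1 leaving out 1 library and 1 without both siPhf2 libraries, and 1 fell in that fit and 3 with the names exchanged. Over all genes siSmyd5 gave 219 and 292, against 6 and 8 with DESeq2, 9 and 8 with voom, 0 and 0 with limma, 1061 and 1137 without both siPhf2 libraries, and 1 to 1178 and 0 to 1032 leaving out 1 library.

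For siPhf2 the members that rose numbered 0 with either limma fit, library totals or exchanged names, 2 with a mean of at least 50 reads, and 0 to 5 leaving out 1 library (0 without siPhf2 KLA or siCtl KLA, 5 without siPhf2 vehicle). Those that fell numbered 7 with either limma fit or library totals, 1 with no filter or exchanged names, and 0 to 1 leaving out 1 library. With limma on log2(signal + 10), limma on log2(signal + 1) and library totals, the log2 fold changes turned to −1.60, −1.84 and −1.38 for Irf1, −2.25, −2.32 and −2.0 for Irf5, −2.10, −2.64 and −1.57 for Irf9, −0.76, −0.85 and −0.27 for Stat2, −1.65, −1.70 and −1.40 for Stat3, and −1.59, −1.65 and −1.24 for Stat6. The median of all genes turned to −2.19, −2.73 and −2.26 in those fits. Exchanged names gave −1.95 for Stat2 and −0.91 for Stat6. Over all genes siPhf2 gave 649 and 361, against 38 and 7347 with library totals, 34 and 7694 with limma on log2(signal + 10), 339 and 1371 without Rn45s, and 149 to 879 and 60 to 580 leaving out 1 library.

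Among single libraries, KLA over vehicle was higher for 3 members in siPhf2 with exchanged names and for 6 in siCtl, where a bound of 1.5-fold gave 5 higher and 1 lower. For siSmyd5 over siCtl, exchanged names gave 1 higher and 1 lower under vehicle and 4 lower under KLA, and the 1.5-fold bound gave 1 lower under vehicle. For siPhf2 over siCtl under vehicle, the members higher were 1 with the 1.5-fold bound and 2 with exchanged names, and those lower were 8 with library totals, 4 without Rn45s and 0 with exchanged names, where Irf7 turned to a log2 ratio of 4.63 and Irf9 to 1.88. Under KLA the members higher were 0 with library totals or exchanged names, 7 with a length trend removed and 6 with the 1.5-fold bound. Those lower were 6 with library totals and 3 with exchanged names. There Irf2 turned to −0.37 with totals and −1.81 with exchanged names, Irf9 to −0.72 and −1.49, and Stat2 to −2.54 with exchanged names. With reads summed over transcripts and with reads per kilobase, Irf1's share was 32.3% and 30.1% in siSmyd5 KLA, 26.2% and 24.8% in siPhf2 KLA and 26.2% and 25.0% in siCtl KLA. Irf7's was 26.2% and 27.4%, 19.1% and 20.2%, and 24.7% and 26.2% in those libraries, 40.5% and 42.1% in siSmyd5 vehicle and 41.0% and 43.3% in siCtl vehicle. Causes were not tested beyond what each setting changes by construction. The siPhf2-labelled libraries hold 366 and 123 member reads, so their members below about 10 reads have wide intervals.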
